A study of Mus musculus with 4 samples.

Results

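The expression of 10 chemokine, complement and inflammatory glial genes was followed by RNA sequencing in neural stem cells of female mouse embryos with or without Smchd1, a chromatin protein of the SMC family that helps keep the inactive X chromosome and some gene clusters silent. Ccl2, Ccl5, Cxcl1, Cxcl10, Cxcl12, Cx3cl1, Csf1, C3, C4b and Vcam1 were taken by symbol from a count table of 25965 entries. All 10 symbols were found, and 7 of the genes passed the filter on low counts and were tested. The cell lines came from E14.5 embryos on a mixed C57BL/6, 129 and Castaneus background. Control cells were Smchd1 del/fl, so 1 Smchd1 allele was deleted in them already, and they were not transduced. Deleted cells were Smchd1 del/del. They were made from part of the same lines with the retrovirus MSCV-Cre-puro, were put under puromycin 24 h later and were collected 7 days after transduction. All cells carried Xist deltaA on a maternal 129 X and a wild-type Xist on a paternal Castaneus X. Smchd1 loss, Cre, retroviral infection and drug selection therefore cannot be told apart. A control and a deleted library of each of 2 lines, named A and B below, gave 4 libraries in all. Which libraries share a line was inferred from a number in the column names. The series' design text names 3 lines per genotype, and any other line was not analysed here.

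Chemokines are small secreted proteins that bind G protein-coupled receptors and guide migrating cells. Inflammatory ones such as Ccl2, Ccl5, Cxcl1 and Cxcl10 are made on demand, typically through the transcription factor NF-kB and, for Cxcl10 and Ccl5, through interferon signalling as well, while Cxcl12 and Cx3cl1 are made by many resting cells. Complement proteins such as C3 and C4 tag surfaces for phagocytes, and in the brain astrocytes and microglia make them. Csf1 supports macrophages and microglia, and Vcam1 is an adhesion molecule of endothelium that is also found on neural stem cells.

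The promoters of 6 of the 10 genes (Csf1, Cxcl1, Cxcl10, Cxcl12, Cx3cl1 and C3) were found in RefSeq's promoter table for GRCm38.p6. The 250 bases before the start were searched on both strands for the interferon-stimulated response element (ISRE; GAAA, any 2 bases, GAAA), the STAT-binding GAS element (TTCNNNGAA) and the NF-kB consensus. The promoters of Cxcl10 and Cxcl1 are shown because both chemokines were far higher in the deleted library of line A than in its control, and that of Csf1 because it is the other one with a match. Capitals mark the matches, and each sequence is on the strand of its gene.
Cxcl10, chr5:92348890-92349139, minus strand: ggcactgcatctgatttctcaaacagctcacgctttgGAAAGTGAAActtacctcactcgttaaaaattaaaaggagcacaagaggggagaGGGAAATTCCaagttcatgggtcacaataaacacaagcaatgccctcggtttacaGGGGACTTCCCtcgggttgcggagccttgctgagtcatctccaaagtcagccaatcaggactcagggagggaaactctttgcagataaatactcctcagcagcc
Cxcl1, chr5:90890995-90891244, plus strand: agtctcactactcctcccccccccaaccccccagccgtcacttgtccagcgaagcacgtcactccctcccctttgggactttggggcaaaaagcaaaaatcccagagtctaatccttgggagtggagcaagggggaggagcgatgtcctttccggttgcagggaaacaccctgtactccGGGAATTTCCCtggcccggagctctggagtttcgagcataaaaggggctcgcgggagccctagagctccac
Csf1, chr3:107760470-107760719, minus strand: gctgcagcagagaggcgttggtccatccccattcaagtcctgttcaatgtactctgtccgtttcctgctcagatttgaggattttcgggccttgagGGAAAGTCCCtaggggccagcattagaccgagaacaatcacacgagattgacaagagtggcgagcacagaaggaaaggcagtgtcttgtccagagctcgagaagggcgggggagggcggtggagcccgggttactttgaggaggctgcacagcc
In Cxcl10 the ISRE match GAAAGTGAAA lay at bases 213 to 204 before the start. Of its 3 NF-kB matches, GGGAAATTCC lay at bases 159 to 150, and the other 2 overlapped each other at bases 104 to 94. In Cxcl1, 2 NF-kB matches on opposite strands overlapped at bases 71 to 61, and Csf1 had 1 on the strand opposite to the gene, at bases 154 to 145. No match to these letters lay in the windows of Cxcl12, Cx3cl1 and C3. Among 32817 promoter windows of the same length, 2.97% held an ISRE match, 7.01% a GAS match and 7.25% an NF-kB match.

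**Figure D1:**
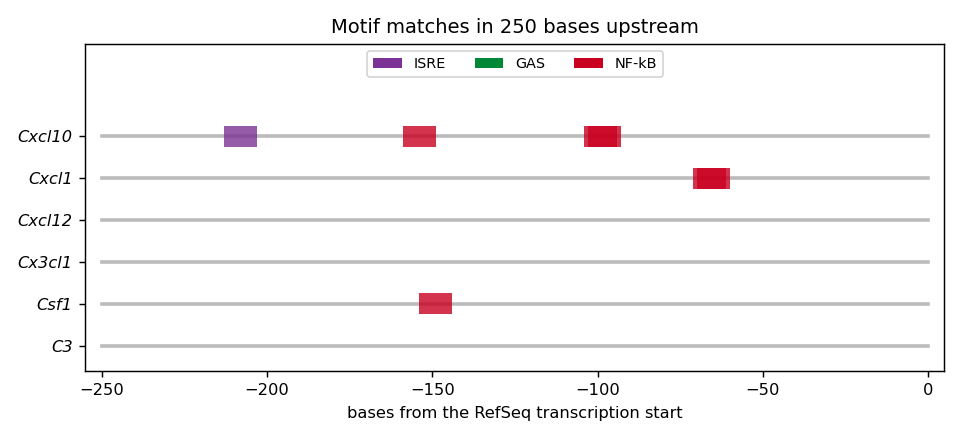
Matches to the ISRE, GAS and NF-kB motifs in the 250 bases upstream of the RefSeq start of 6 genes, with the distance from the start in bases on the x axis. Of the 6, Cxcl10 has an ISRE match, Cxcl10, Cxcl1 and Csf1 have NF-kB matches, and none has a GAS match.

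Total counts per library were between 29873400 and 34018500. Levels below are in CPM (counts scaled to a common library total) or, to compare genes, in RPKM (CPM per kilobase of annotated exon). Smchd1 itself had 2779 control and 785 deleted counts in line A, and 3461 and 852 in line B. It fell in a fit that takes line as a block, called the blocked fit here (log2 fold change −1.96, SE 0.0707, edgeR adjusted p = 0.0194). With genotype as the only term, the fit meant where none is named, the edgeR adjusted p was 0.341. This count covers the whole gene, so it includes transcripts that lack only the deleted part. The 10 neural stem cell markers summed to 9137 to 9821 CPM in controls and 9300 to 10350 in deleted libraries. Of 11 microglia and macrophage markers in the table, Tmem119, Trem2, Tyrobp and Cx3cr1 were at 0 throughout, and the list summed to 15.5 to 17.6 CPM in controls and 14.8 to 19.3 in deleted libraries. Endothelial markers, with Cdh5 and Tie1 at 0, summed to 3.00 to 3.99 CPM over all libraries.

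Per length, the fractalkine gene Cx3cl1 had the highest control level of the 10, at 33.9 ± 2.24 RPKM (SD, n = 2), above 88.9% of the tested genes with an exon length. Csf1 followed at 16.7 ± 2.34 RPKM (SD, n = 2), above 74.6% of them. Ccl2, at 4.86 ± 1.37 RPKM, and Vcam1, at 4.25 ± 0.790 (SD, n = 2 each), did not differ beyond their spread. Cxcl10 was lower, at 0.660 ± 0.0246 RPKM (SD, n = 2). C4b, at 0.171 ± 0.0672, and Cxcl12, at 0.129 ± 0.126 (SD, n = 2 each), again did not differ beyond their spread. Cxcl1 and C3 had at most 8 and 6 counts in a control, and Ccl5 had none. The order differed in deleted line A, where Cxcl10 was at 8.05 RPKM, above Ccl2 at 4.17 and Vcam1 at 4.43. In deleted line B Cxcl10 was below both, at 1.14 RPKM against 1.76 and 4.57.

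**Figure D2:**
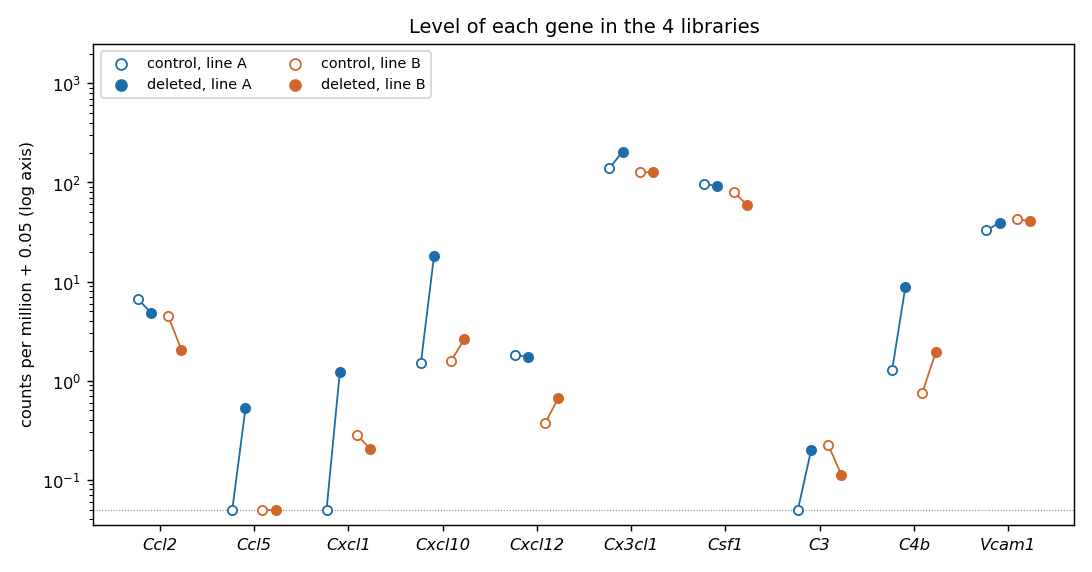
CPM of the 10 genes in each library, with 0.05 added, on a log axis; open points are controls, filled points deleted cells, and a line joins the libraries of 1 cell line. Cxcl10 is at 1.45 and 18.1 CPM in control and deleted cells of line A but at 1.53 and 2.56 in those of line B, and Ccl5, Cxcl1 and C3 lie near the bottom.

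Cxcl10 (chromosome 5, 92346638 to 92348889, mm10 as in the table) encodes a ligand of Cxcr3, a receptor of activated T cells. Line A held 43 control and 607 deleted counts, and line B 52 and 82. Both deleted libraries were above both controls, and deleted A stood far above deleted B. Within line A its level was 12.5-fold higher in deleted cells (95% exact interval 9.19 to 17.5), and within line B 1.68-fold higher (1.17 to 2.43). These intervals, like all those within a line, compare 1 library with 1 and cover counting error only. The log2 fold change over both lines was 2.80 (SE 0.995, edgeR adjusted p = 0.424), and 2.30 in the blocked fit (SE 0.711, edgeR adjusted p = 0.112), so Cxcl10 was called by neither. Without deleted A it was 0.78. DESeq2 did not call Cxcl10 either, with an adjusted p of 0.0517 with genotype alone and 0.301 with line as a block. Art3 lies over Cxcl10 on the opposite strand and shares 5.91% of its exon bases. Its own counts were 13 and 83 in line A and 2 and 6 in line B (edgeR adjusted p = 0.561, blocked 0.0492), and reads of the shared bases cannot be told apart if strand was not used.

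Ccl5 (chromosome 11, 83525778 to 83530518), an attractant of T cells and monocytes, had 16 counts in deleted A and 0 in each of the other 3 libraries. Set against a floor of 3 counts for control A, its level in deleted A was 4.73-fold higher. Such floor values compare 1 library with 1 and make no allowance for counting error in deleted A. Cxcl1 (chromosome 5, 90891241 to 90893115), a neutrophil attractant, had 39 counts in deleted A and 0 in its control, 11.5-fold higher against the same floor. In line B it had 8 control and 5 deleted counts. Both genes were too low for the filter, and most of their counts were in deleted A. Other chemokines, named after their values were seen, were low too. Cxcl9 and Cxcl11, the other ligands of Cxcr3, had 3 and 1 counts in deleted A and 0 elsewhere, and Cxcl2 had 6 there and 0 to 2 elsewhere. Cxcl5, also not tested, held 6 control and 41 deleted counts in line A, and 4 and 1 in line B.

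Ccl2 (chromosome 11, 82035571 to 82037453), the main monocyte attractant, was lower in the deleted library of each line. Line A held 197 control and 159 deleted counts, and line B 151 and 64. The groups overlapped, since deleted A (4.75 CPM) was above control B (4.43 CPM). Deleted cells had 0.716 times the control level in line A (95% exact interval 0.577 to 0.887) and 0.452 times in line B (0.332 to 0.609). The log2 fold change was −0.71 (SE 0.509, edgeR adjusted p = 0.607), and −0.79 in the blocked fit (SE 0.240, edgeR adjusted p = 0.108), so Ccl2 was called by neither. Without deleted B it was −0.24. Ccl7, a related monocyte attractant named after its values were seen, held 40 and 29 counts in line A and 23 and 26 in line B.

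Cx3cl1 (chromosome 8, 94772009 to 94782423) encodes the membrane-bound ligand of the microglial receptor Cx3cr1. Line A held 4140 control and 6866 deleted counts, and line B 4326 and 4061. Deleted A alone stood apart, at 205 CPM against 127 to 139 in the other 3 libraries. The ratio of deleted to control level was 1.47 in line A (95% exact interval 1.42 to 1.53) and 1.00 in line B (0.958 to 1.04). Over both lines the log2 fold change was 0.32 (SE 0.254, edgeR adjusted p = 0.643), and it was −0.07 without deleted A.

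Cxcl12 (chromosome 6, 117168535 to 117181367), the ligand of Cxcr4 that guides migrating neural precursors, was low. Line A held 53 control and 56 deleted counts, and line B 11 and 20. Both libraries of line A were above both of line B, whatever the genotype. The ratio of deleted to control level was 0.937 in line A (95% exact interval 0.632 to 1.39) and 1.94 in line B (0.885 to 4.48), so a change was not detectable at this depth in either. The log2 fold change was 0.14 (SE 0.959, edgeR adjusted p = 0.970).

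Csf1 (chromosome 3, 107741048 to 107760469), the growth factor of macrophages and microglia, held 2883 control and 3072 deleted counts in line A, and 2713 and 1905 in line B. Deleted B was lowest, at 59.5 CPM, and the other 3 libraries lay between 79.6 and 97.0. The ratio of deleted to control level was 0.945 in line A (95% exact interval 0.898 to 0.995) and 0.748 in line B (0.705 to 0.793). The log2 fold change was −0.22 (SE 0.248, edgeR adjusted p = 0.737), and it was 0.04 without deleted B.

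C4b (chromosome 17, 34728380 to 34743882), which encodes complement component C4, was the 1 gene of the 10 that a fit called. Line A held 37 control and 296 deleted counts, and line B 24 and 60. Both deleted libraries were above both controls, and deleted A was again the highest. In the blocked fit C4b rose by 2.23 on the log2 scale (SE 0.395, edgeR adjusted p = 0.0493), close to the threshold of 0.05, in a fit that on simulated data made more calls among unchanged genes than that threshold implies. With genotype alone the log2 fold change was 2.46 (SE 0.867, edgeR adjusted p = 0.424). The ratio of deleted to control level was 7.10 in line A (95% exact interval 5.03 to 10.3) and 2.66 in line B (1.63 to 4.47), and without deleted A the log2 fold change was 0.94. DESeq2 with the same block gave an adjusted p of 0.00130, in a fit that called 5.63% of its tested genes higher and 3.12% lower. C4a is a near-identical copy whose reads the counting could have split with C4b, so the counts of both are uncertain. C4a held 28 and 43 counts in line A and 35 and 30 in line B (log2 fold change 0.17, edgeR adjusted p = 0.864).

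C3 (chromosome 17, 57203970 to 57228136), the central component of the complement cascade, was near 0. It held 0 control and 5 deleted counts in line A, and 6 and 2 in line B, and was not tested.

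Vcam1 (chromosome 3, 116110020 to 116129688), a ligand of the integrin formed by Itga4 and Itgb1, was at 32.8 CPM in control and 39.3 in deleted cells of line A, and at 42.7 and 40.5 in those of line B. Both deleted libraries lay between the controls. The ratio of deleted to control level was 1.20 in line A (95% exact interval 1.10 to 1.31) and 0.95 in line B (0.881 to 1.02). The log2 fold change was 0.08 (SE 0.159, edgeR adjusted p = 0.855).

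Of the 7 tested genes, 1 was called higher and 0 lower in the blocked fit, which called 3.71% of all 14860 tested genes higher and 1.89% lower. With genotype alone edgeR called none of the 7 and 0.0% of all genes, although 1019 genes were higher with p under 0.05 before adjustment and 718 lower. C4b and Cxcl10 were among the higher ones. Both deleted libraries lay above both controls for 2 of the 7, Cxcl10 and C4b, and for 22.9% of all tested genes, and below them for none of the 7 and 22.8% of all. The median log2 fold change was 0.14 over the 7 and 0.01 over all. Cxcl10 and C4b were also the 2 of 7 with a difference of at least 4-fold upwards in line A by counts with 1 added, a size that 1.57% of all genes reached there. None of the 7 reached it in line B, where 0.444% of all genes did, and none was at least 4-fold lower in line A (0.182% of all) or in line B (0.188%). Whether the lines differ in their response was not tested, since each has 1 library per genotype.

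**Figure D3:**
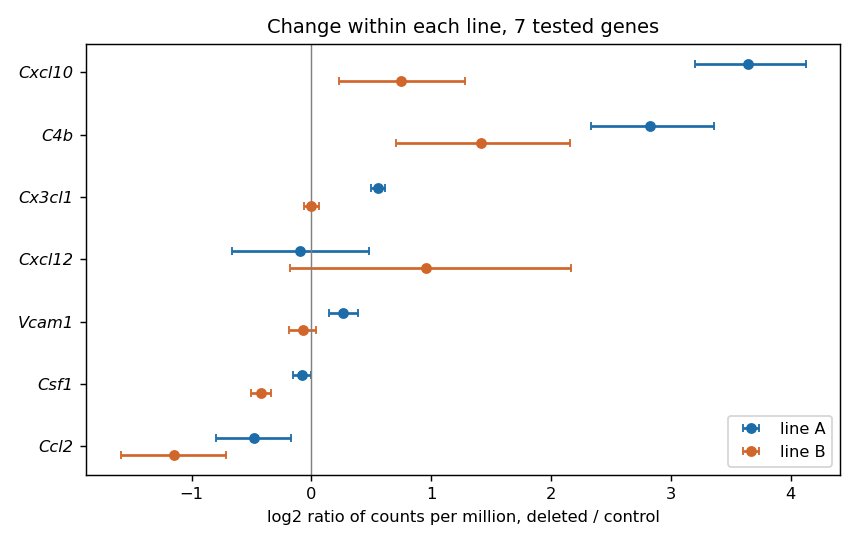
Log2 ratio of CPM in deleted to control cells within each line for the 7 tested genes, with bars for the exact 95% interval of counting error. The intervals of both lines lie above 0 for Cxcl10 and C4b and below 0 for Ccl2 and Csf1, and line A lies to the right of line B for all 7 except Cxcl12.

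Most receptors of these ligands were at or near 0; those given here beyond Itgb1 and Itga4 were named after their values were seen. Ccr1, Ccr2, Ccr3, Cxcr2, Cx3cr1 and C3ar1 had no count in any library, and Cxcr3 had 1 count in deleted A. Cxcr4, the signalling receptor of Cxcl12, held 214 and 190 counts in line A and 152 and 72 in line B (log2 fold change −0.56, edgeR adjusted p = 0.702). Cxcr7, which scavenges Cxcl12, had 71 to 88 counts per library. Csf1r, the receptor of Csf1, had 251 to 304. The Vcam1 receptor subunits were abundant, with 29442 to 37699 counts per library for Itgb1 and 2462 to 4410 for Itga4. Of 19 receptor genes 6 were tested and none was called, and all 6 fold changes were negative (median log2 −0.12), although that of Itga4 (−0.03) was positive, at 0.01, in the blocked fit.

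Of 25 other chemokines, 12 had no count in any library and 7 were tested, with no call in either edgeR fit and a median log2 fold change of 0.71. Cxcl14 held 143 and 244 counts in line A and 210 and 340 in line B (log2 fold change 0.71, edgeR adjusted p = 0.443, blocked 0.0711, and 0.0471 blocked without the filter). Ccl25, a thymic and gut chemokine, had 184 to 271 counts per library (0.11, edgeR adjusted p = 0.906).

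Of 28 other complement genes 13 were tested, with a median log2 fold change of 0.17, and in the blocked fit 1 rose and 0 fell. That fit called 3.71% of all tested genes higher and 1.89% lower, which applies to each list of this paragraph. Masp1, a protease of the lectin pathway, held 219 and 604 counts in line A and 638 and 1064 in line B, and rose by 1.04 (log2, blocked; SE 0.149, edgeR adjusted p = 0.0359, and 0.540 with genotype alone). With genotype alone its log2 fold change was 0.97, and 0.45 without control A, 1.80 without control B and 0.45 without deleted B. C1qa, C1qb and C1qc, which encode C1q, were at 0. Of 22 genes of the NF-kB pathway 17 were tested, with a median of 0.02, and in the blocked fit 1 rose and 0 fell. Nfkbiz, a nuclear regulator of NF-kB, held 1021 and 1925 counts in line A and 1099 and 1755 in line B, and rose by 0.75 (log2, blocked; SE 0.0729, edgeR adjusted p = 0.0223, and 0.341 with genotype alone). The cytokine genes Tnf, Il1b and Il6 had no count in any library. Of 10 relatives of Csf1 and Vcam1 6 were tested, with a median of 0.23, and in the blocked fit 1 rose and 0 fell. This was the adhesion molecule gene Mcam, with a log2 difference of 0.86 within line A and 0.62 within line B, which rose by 0.74 (log2, blocked; SE 0.117, edgeR adjusted p = 0.0416, and 0.406 with genotype alone). It was 0.76 with genotype alone and 0.47 when deleted A was also left out.

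Interferon genes were high in deleted A, the library with the highest Cxcl10, Ccl5, Cxcl1 and C4b. The list of 18 summed to 835 CPM in deleted A, 452 in deleted B and 445 to 487 in controls. Over its 17 tested genes line A had a median log2 difference of 0.91, and line B one of 0.11. Over all tested genes these medians were 0.02 and −0.0002. None of the 17 was called by edgeR in either fit, and DESeq2 with line as a block called 1 higher. Jak1 (log2 fold change 0.19) and Ifnar1 (−0.04), which carry the interferon signal, are the 2 with the most counts, and Ifnb1 was at 0. Some interferon-induced genes were named after their values were seen. Ifit1 held 25 control and 996 deleted counts in line A but 17 and 24 in line B. Isg15 held 26 and 416 against 10 and 10, and Irf7 50 and 423 against 14 and 21.

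Astrocyte markers were higher in the deleted cells of both lines. They summed to 568 and 573 CPM in the controls and 993 and 911 in deleted A and B. All 8 were tested, with a median log2 fold change of 1.02. In the blocked fit 5 rose, and that fit called 3.71% of all tested genes higher. Gfap, the astrocyte filament gene, rose by 1.38 (edgeR adjusted p = 0.0410), Aqp4 by 2.01 (0.0194), S100b by 2.64 (0.0230), Gja1 by 0.64 (0.0273) and Aldh1l1 by 0.62 (0.0321). With genotype alone their adjusted p-values by edgeR were 0.341 to 0.676. When deleted A was left out of that fit, S100b went from 2.81 to 1.36, Gja1 from 0.65 to 0.41 and Aldh1l1 from 0.66 to −0.15. Aqp4 went from 2.00 to 1.97 and Gfap from 1.38 to 1.19. Without control A, control B and deleted B in turn, Aldh1l1 was at 1.32, 0.20 and 1.15. The part of the interferon genes and of the astrocyte markers in the values of Cxcl10, Ccl5, Cxcl1 and C4b was not tested. In bulk libraries such as these, more cells of a type and more RNA per cell cannot be told apart.

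Genes known from reactive astrocytes moved in both directions. Of 30 listed 24 were tested, with a median log2 fold change of 0.13, and in the blocked fit 1 rose and 2 fell. Over all tested genes, that fit called 3.71% higher and 1.89% lower. Serpina3n, a secreted protease inhibitor, held 86 and 322 counts in line A and 16 and 80 in line B, and rose by 1.97 (log2, blocked; SE 0.257, edgeR adjusted p = 0.0322). The cytokine gene Clcf1 held 1704 and 671 counts in line A and 2258 and 774 in line B, and fell by 1.48 (log2, blocked; SE 0.0777, edgeR adjusted p = 0.0194). S100a10, an S100 family gene, held 5554 and 3996 counts in line A and 7334 and 3782 in line B, and fell by 0.76 (log2, blocked; SE 0.0816, edgeR adjusted p = 0.0233). Serpina3n was at 1.86 with genotype alone, at 3.67 without control A, 1.06 without control B and 0.58 without deleted A. With genotype alone the adjusted p-values by edgeR were 0.549 for Serpina3n, 0.341 for Clcf1 and 0.355 for S100a10.

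**Figure D4:**
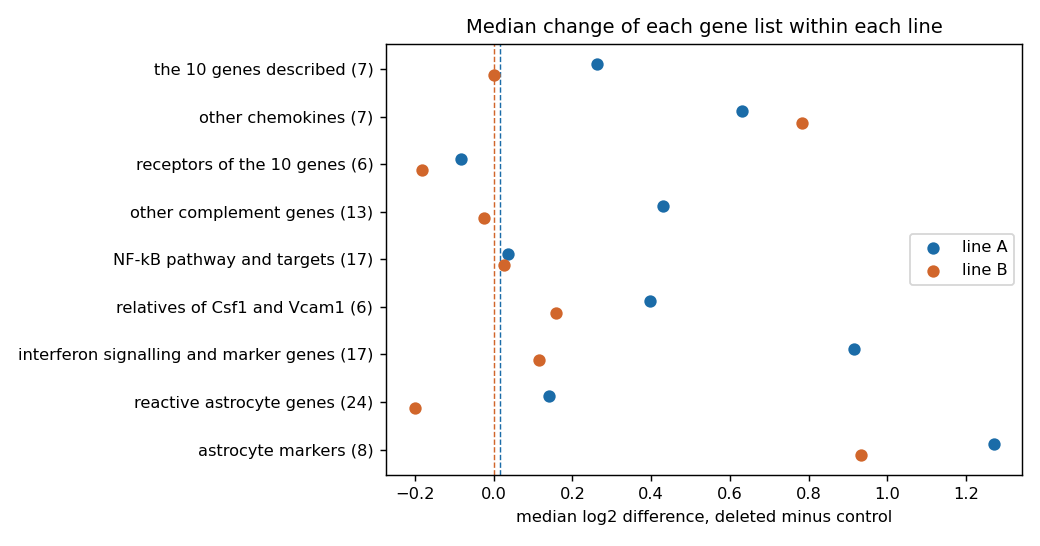
Median log2 difference (deleted minus control, 1 count added) of 9 gene lists within each line, with the number of tested genes in parentheses and dashed lines for the median of all tested genes. The interferon list is at 0.91 in line A and 0.11 in line B, while the astrocyte markers are high in both lines, at 1.27 and 0.93.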

How the data were processed

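RNA was sequenced from 4 libraries. Their deposited values are raw counts, 1 whole number for each gene and library. TopHat2 2.0.12, bcl2fastq, edgeR and the build mm10 are listed, per the submitters' processing notes, while the counting step, strand included, is not given in the sources used here. Another 8 columns, of reads split by parental genome, gave no reported value. Column names show a library's group but not its title, so 1 measure per library, the total count, was kept. The planned test of allele shares had been computed by then and is not reported.

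Line was read from a number that column names share. Genes were tested with edgeR 4.0.16 in R 4.3.3 (quasi-likelihood, TMM, filterByExpr, Benjamini-Hochberg over all 14860 genes, threshold 0.05), with genotype as the only term. Per the labels, deleted cells were made from part of the same lines. That same-numbered libraries share a line is an inference, which the labels do not state. The blocked fit and all values within a line rest on it. Across genes, which are not independent, deviations from group means correlated at r = 0.716 between same-numbered libraries. The first principal component (58.1% of variance) separated A from B. The blocked value is given where it changes a call, and for Cxcl10, Ccl2 and the genes beside them. Both fits were tested on simulated data, where the blocked one made several times more calls among unchanged genes than its threshold implies, and the one with genotype alone missed all of the smaller changes and many of the larger ones. SEs come from the quasi-likelihood F statistic. Nothing says that the 2 lines come from separate embryos, so p-values measure only the spread between these samples.

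CPM used TMM-scaled totals, and RPKM the union exon lengths of GENCODE M21 (13313 of 14860 genes matched). Genes and lists were chosen with earlier results of these data known. Besides the 10, up to 6 called genes of a list are named, or the 2 with the most counts. Among neural stem cell markers Slc1a3 (0.96) rose in the blocked fit. Some genes of the lists are not reported here by name. Neither edgeR fit called markers of microglia (Csf1r −0.11, Cd68 0.04), endothelium (Kdr 0.22, Tek −1.05), mesenchyme (Acta2 −0.35, Col1a1 0.04), neurons (Syp 0.39, Dcx 0.97) and oligodendrocytes (Cnp 0.21, Cspg4 0.61; all log2), while DESeq2 and the unfiltered edgeR fit, both with the block, called Cspg4, and the latter Dcx. Alternatives were DESeq2 1.42.0, RLE scaling, no filter, and each library left out.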

Additional observations from a re-analysis of the deposited data

Results flagged for a closer look

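Vcam1 and Cxcl12 had differences of opposite sign in the lines, though the counting intervals of Cxcl12 in both lines and of Vcam1 in line B include no change. For Vcam1 the log2 difference, with 1 count added, was 0.26 in A and −0.07 in B, which is 0.34 apart. For Cxcl12 it was −0.09 in A and 0.90 in B, so A minus B was −0.99. With 1 library per genotype in each line, this difference was not tested. Of all tested genes, 25.4% had opposite signs.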

How the results depend on the processing

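With the replicate block, edgeR made 551 higher and 281 lower calls against none without it, and called 1 of the 10 genes, C4b. RLE scaling with the block gave 604 and 304, and no filter with the block 1131 and 671, with 1 of the 10 each time. DESeq2 gave 263 and 115 with genotype alone (0 of the 10), and 772 and 427 with the block (1 of the 10). Unfiltered fits test more genes, and otherwise the cause was not tested. The blocked Itga4 was 0.014 with edgeR, 0.011 with DESeq2, 0.010 with RLE and 0.0042 unfiltered, and Cd68 was −0.0044 with DESeq2, −0.00040 with RLE and −0.0064 unfiltered, each of the other sign than with genotype alone. Leaving out 1 library gave 0 calls, in fits whose lone library is assumed to vary like the other group. Log2 fold changes then ran from 0.78 to 3.58 for Cxcl10, 0.94 to 3.16 for C4b and −1.47 to −0.24 for Ccl2. Signs changed for Cxcl12 (−0.74 to 1.82), Cx3cl1 (−0.070 to 0.60), Csf1 (−0.57 to 0.036), Vcam1 (−0.10 to 0.28), Ccl25 (−0.13 to 0.38), Itgb1 (−0.20 to 0.071), Itga4 (−0.45 to 0.55), Ifnar1 (−0.20 to 0.078), Aldh1l1 (−0.15 to 1.32), Cd68 (−0.60 to 0.48), Acta2 (−1.23 to 0.18) and Col1a1 (−0.13 to 0.22).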

Other observations

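Some genes outside the naming rule, picked after their values were seen, are given as values. Icam1, an adhesion molecule that like Vcam1 binds integrins, held 163 and 634 counts in control and deleted cells of line A and 299 and 389 in those of line B (log2 fold change 1.12, edgeR adjusted p = 0.406, blocked 0.105). Il34, the other ligand of Csf1r, held 175 and 138 in line A, and 186 and 72 in line B (−0.83, edgeR adjusted p = 0.455, blocked 0.0999). Serping1, which encodes the C1 inhibitor, held 2 and 23 in line A, and 1 and 4 in line B, and was not tested. Clu, the clusterin gene, held 2480 and 5835 in line A but 2466 and 2406 in line B, so deleted A alone stood apart (0.68, edgeR adjusted p = 0.567).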
